A study of Mus musculus with 4 samples.

Results

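The genes described here are 6 genes of the myelin-forming Schwann cell (Mbp, Prx, Mag, Pmp22, Cnp and S100b), read in whole mouse ear skin. A gene was taken through the probe sets listed with its symbol alone, and 5 of the 6 had such a probe set, 1 each, out of 19938 named genes. Prx, which encodes periaxin, was not analysed here. RNA came from ears of 8-week-old female mice and was hybridised to 4 Mouse Gene 1.0 ST arrays, 1 for each of 4 groups. The groups were Traf6f/f mice, whose Traf6 gene is floxed but intact (here f/f), and Traf6EKO mice, the epithelial Traf6 knockout (here EKO), each either untreated or given 10 mg per day of a cream with imiquimod (IMQ) on the ear for 2 days. IMQ activates TLR7 and serves as a model of psoriasis-like skin inflammation, and TRAF6 is an adaptor that relays Toll-like, IL-1 and IL-17 receptor signals. The series title calls the deletion keratinocyte-specific, and no Cre line is named in the labels. Its design text gives n = 2 without saying whether 2 mice were pooled on an array. Without replicate arrays, the values carry no replicate error and a difference between 2 arrays has no p-value.

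Schwann cells ensheathe the axons of peripheral nerves, and in skin they follow the sensory and autonomic fibres of the dermis. The myelinating kind wraps a single axon in compacted membrane, held together by proteins such as MBP and PMP22, while non-myelinating Schwann cells enclose several thin fibres. SOX10 and EGR2 are transcription factors that drive myelin genes in these cells. Several of the genes are also used outside nerve: Pmp22 in fibroblasts and epithelia, Cnp at low levels in many cells, and S100b in chondrocytes, adipocytes and melanocytes. In whole ear, fewer Schwann cells and less RNA per Schwann cell cannot be told apart.

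Levels are the deposited log2 values, and a difference of 1 is 2-fold. The median level of all named genes on an array, 6.93 to 6.98, served as a floor below which signal approaches background. Median probe set levels were 6.52 to 6.57 on the 4 arrays. Traf6 stood at 9.51 without and 9.30 with IMQ in f/f, and at 9.65 and 9.35 on the arrays labelled EKO, so it was not lower there. The level does not check the labels, because whole ear holds non-epithelial cells too and the probes' place relative to the deletion is unknown here. The 9 measured keratinocyte genes were all above the floor, with a median level of 12.2 in f/f untreated skin.

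Of the 5 myelin genes measured, Mbp, Pmp22, Cnp and S100b were lower on the IMQ array in both genotypes (49.3% of all genes above the floor lay below 0 in f/f and 52.9% in EKO), and Mag lay below the floor on all 4 arrays. The difference was larger in f/f than in EKO for each of those 4 genes. This is not particular to them, as large IMQ differences were more common in f/f across the array. The 1.5-fold mark was passed by 9.53% toward lower and 10.2% toward higher in f/f, against 0.807% and 2.66% in EKO. The share of all genes with a larger difference in f/f was not counted. In f/f the median difference was -0.41 for the 5 genes and -0.53 for the 4 above the floor. It was 0.01 for the 10548 genes above the floor in that comparison. In EKO the medians were -0.19 for the 5 and -0.28 for the 4, beside -0.01 for 10285 genes. Pmp22 and S100b were at least 1.5-fold lower in f/f, against 9.53% of all genes above the floor. S100b was the 1 gene of the 5 at least 1.5-fold lower in EKO, against 0.807% of all genes; it passed the floor through its untreated arrays alone. No member was 1.5-fold higher in either genotype (background 10.2% in f/f and 2.66% in EKO).

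**Figure D1:**
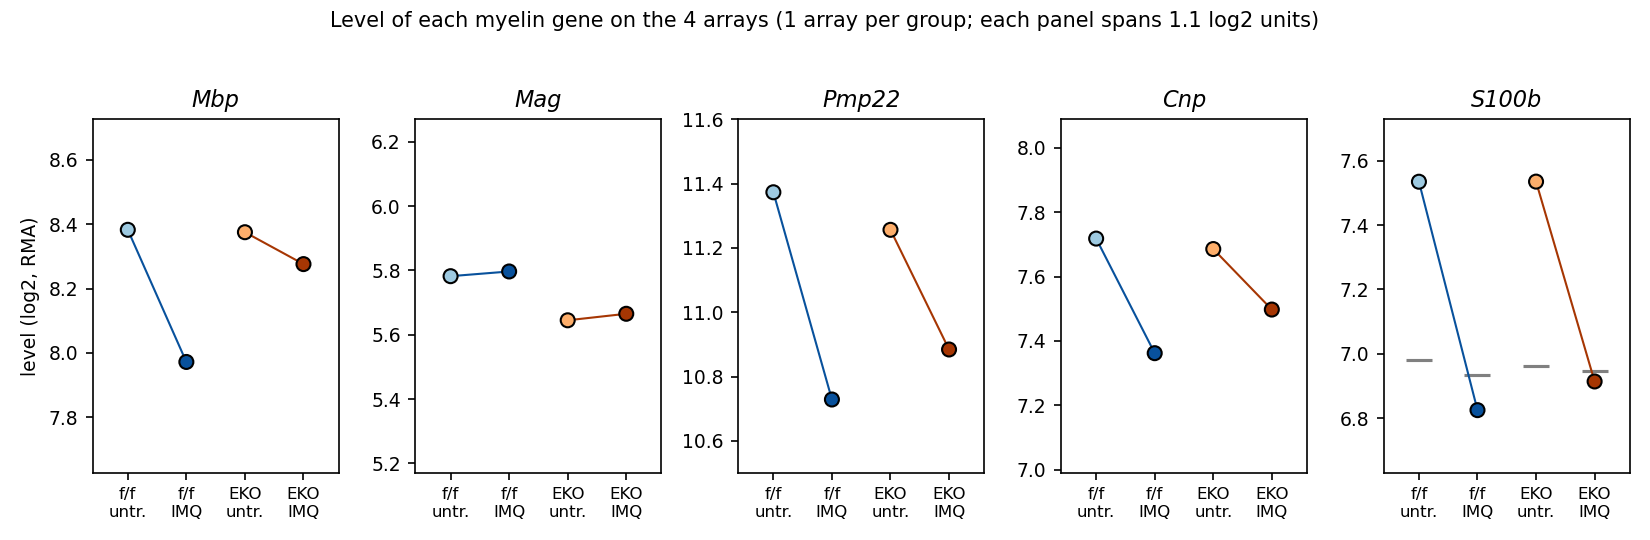
Level of each measured myelin gene (log2, vertical axis) on the 4 arrays, 1 point per array, with a line joining the arrays of one genotype and grey bars at the floor where it falls within the panel. Mbp, Pmp22, Cnp and S100b are lower on both IMQ arrays than on both untreated arrays, while Mag differs by 0.15 over all 4 arrays and its panel lies wholly below the floor.

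Mbp encodes myelin basic protein, which binds the inner membrane faces of compact myelin together. In f/f the level was 8.38 without and 7.97 with IMQ, and in EKO it was 8.38 and 8.28. The untreated arrays were level and the f/f IMQ array stood lowest, with EKO IMQ between. IMQ skin was thus 1.33-fold lower in f/f (difference -0.41) and 1.07-fold lower in EKO (-0.10), the latter being 24.1% of the f/f difference. In f/f 16.4% of all genes above the floor had a lower difference than Mbp, and in EKO 32.8% had.

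Pmp22 encodes a tetraspan protein of compact myelin whose dosage is altered in inherited neuropathies. Pmp22 read 11.37 without and 10.73 with IMQ in f/f, and 11.26 and 10.88 in EKO. Both IMQ arrays lay below both untreated arrays. IMQ skin was 1.56-fold lower in f/f (difference -0.64) and 1.29-fold lower in EKO (-0.37), which is 57.7% of the f/f difference.

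Cnp encodes the phosphodiesterase CNPase, which sits in non-compacted myelin. It was measured at 7.72 without and 7.36 with IMQ in f/f, and at 7.69 and 7.50 in EKO. The order of the arrays was that of Mbp and Pmp22: f/f untreated, EKO untreated, EKO IMQ and f/f IMQ from high to low. The difference was -0.36 in f/f (1.28-fold) and -0.19 in EKO (1.14-fold), and 19.4% of all genes above the floor had a lower one in each genotype.

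S100b encodes a calcium-binding protein of glia that is also made by chondrocytes. The levels were 7.53 without and 6.82 with IMQ in f/f, and 7.54 and 6.91 in EKO, so both IMQ arrays were below the floor and both untreated arrays above it. The difference was -0.71 in f/f (1.64-fold lower) and -0.62 in EKO (1.54-fold lower). Signal below the floor is close to background, so these folds are imprecise.

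Mag encodes myelin-associated glycoprotein, a sialic-acid-binding receptor of the membrane next to the axon. It read 5.78 without and 5.80 with IMQ in f/f, and 5.65 and 5.67 in EKO. All 4 values were below the floor, so they give no order of the groups. The 10 oligodendrocyte genes of the central nervous system listed beside it, such as Mog and Mobp, were likewise below the floor on every array, the highest reading being 6.54.

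The profiles of Mbp, Pmp22, Cnp and S100b were compared over the 4 arrays. With each gene's levels taken relative to its own mean, Mbp and Cnp differed by a root mean square of 0.061 over the 4 arrays and Pmp22 and S100b by 0.092, while Mbp and S100b differed by 0.22. The values for S100b include its readings below the floor on both IMQ arrays. Against the median profile of the 5 genes the closest non-members above the floor on every array were Auh, Frmd4b, Pcf11, Inpp5a and Map4, at 0.019 to 0.021. Their differences ran from -0.44 to -0.41 in f/f and from -0.21 to -0.17 in EKO. Within 0.209, the distance of Mag, the farthest of the 5, lay 54.2% of 9249 genes. Mag is below the floor on all 4 arrays, so this share does not show how common the profile of the other 4 is. Those 4 lay at 0.038 (Cnp) to 0.183 (S100b), and the share of genes within these distances was not counted.

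The sequences upstream of 3 of the genes lower with IMQ in both genotypes are shown because SOX10 and EGR2 act on myelin promoters. They are plus-strand sequence of GRCm38.p6 from RefSeq, 5′ to 3′, ending just before the RefSeq start of the gene, which for Cnp lies 30 bases ahead of the transcript start used for the counts below, with matches to the SOX motif ACAANG on either strand in capitals. Pmp22 (chr11:63128732-63128981), Cnp (chr11:100574689-100574908) and S100b (chr10:76253586-76253835) are protein-coding genes, and the windows lie in their 5′ flanks.
Pmp22: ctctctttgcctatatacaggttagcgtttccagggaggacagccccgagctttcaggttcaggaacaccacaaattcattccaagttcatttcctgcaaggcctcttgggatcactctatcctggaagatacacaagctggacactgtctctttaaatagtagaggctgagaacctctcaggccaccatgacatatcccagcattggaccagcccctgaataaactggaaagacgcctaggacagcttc
Cnp: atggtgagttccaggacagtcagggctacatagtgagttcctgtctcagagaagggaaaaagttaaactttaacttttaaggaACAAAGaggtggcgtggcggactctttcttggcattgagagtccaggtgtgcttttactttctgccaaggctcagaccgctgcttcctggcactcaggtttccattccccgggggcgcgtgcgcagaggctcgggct
S100b: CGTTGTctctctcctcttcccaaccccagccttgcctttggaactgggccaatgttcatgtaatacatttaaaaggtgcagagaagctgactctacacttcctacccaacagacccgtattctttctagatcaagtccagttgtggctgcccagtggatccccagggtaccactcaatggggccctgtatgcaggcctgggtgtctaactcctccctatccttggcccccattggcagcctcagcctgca
The Cnp window holds ACAAAG, whose first base lies 137 bases before the gene start and 167 before that transcript start, and the S100b window has its match at its outer edge, 250 bases before the start. No match was found in the Pmp22 window. ACAANG occurs in 36.3% of 32851 mouse windows of 250 bases, so a match is common. Over the 10 annotated starts of Prx, Mag, Pmp22, Cnp and S100b, 5 windows held it. The EGR motif GCGNGGGCG was in none of the 10, against 4.70% of all windows, and the TATA box motif TATAAA was likewise in none, against 12.4%. The probe sets do not separate the 4 annotated starts of Pmp22. The part of SOX10 or EGR2 in the IMQ differences was not tested.

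Other Schwann genes were mixed. Of 25 listed genes of the myelinating Schwann cell outside the 6, 23 had a probe set and 9 reached the floor on at least 1 array. In f/f 5 of these 9 were lower and 4 higher with IMQ, with a median of -0.14, and 3 were at least 1.5-fold lower (background 9.53%). In EKO 4 were lower and 5 higher, with a median of 0.03, and 0 of the 9 were at least 1.5-fold lower (background 0.807%). Drp2, the dystrophin-related partner of periaxin at the Schwann cell surface, was at -0.77 in f/f and -0.37 in EKO. Fgd4, an exchange factor for CDC42 that is mutated in a demyelinating neuropathy, was at -0.81 and -0.32. Drp2 and Fgd4 read 6.87 and 6.73 on the f/f IMQ array, below the floor, so their f/f differences are imprecise. Adgrg6, an adhesion receptor needed to start myelination and also used in cartilage, was at -0.54 and -0.26.

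Art3, an ADP-ribosyltransferase gene also known from skeletal muscle, had the lowest difference of the 9, at -1.39 in f/f and -0.53 in EKO. Cldn19, a tight junction gene of the myelin sheath, was at -0.14 and 0.12. The 4 genes higher with IMQ in both genotypes were the transcription factor genes Egr2 (0.19 in f/f and 0.08 in EKO) and Pou3f1 (0.40 and 0.15), the neuregulin receptor gene Erbb3 (0.15 and 0.11) and Fxyd3 (0.06 and 0.03). Those 4 are also expressed by keratinocytes. The other 14 measured genes of the list, Sox10 among them, stayed below the floor on all arrays. In f/f 8 of the 14 were below 0 and 6 above, between -0.98 and 0.24, and in EKO 11 were below and 3 above, between -0.40 and 0.15.

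Of 8 enzymes of myelin lipids, 5 reached the floor. Gal3st1, which sulfates galactocerebroside to sulfatide, was at -0.58 in f/f and -0.11 in EKO, and Arsa, the sulfatide-degrading arylsulfatase, at -0.46 and -0.37. Gal3st1 and Arsa read 6.68 and 6.90 on the f/f IMQ array, below the floor. The ceramide synthase gene Cers2 was at -0.13 and -0.15. Fa2h, a fatty acid hydroxylase also used in epidermal and sebaceous lipids, was at 0.30 and 0.37, and the elongase gene Elovl1, also epidermal, at 0.41 and 0.10. The enzymes thus did not lie on one side of 0.

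Among 10 measured genes of non-myelinating Schwann cells, the 5 at the floor were all below 0 in f/f (median -0.23) and 3 of 5 in EKO (median -0.13). Scn7a, an atypical sodium channel gene, was at -0.88 in f/f and -0.25 in EKO. Ngfr, the low-affinity neurotrophin receptor gene, was at -0.43 and 0.0034, and Ncam1, an adhesion molecule gene, at -0.23 and -0.13. The adhesion gene L1cam was at -0.03 and 0.17, and the lipocalin gene Apod, abundant in dermal fibroblasts too, at -0.20 and -0.29.

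Injury-response genes of Schwann cells were mostly unread: 2 of 9 measured reached the floor. Jun, the transcription factor of repair Schwann cells, was at 0.09 in f/f and 0.0071 in EKO, and Btc, an EGF receptor ligand gene, at -1.27 and -0.18. Of 14 axonal and neuronal genes 1 reached the floor. This was Stmn2, a microtubule regulator of axons, at -0.46 in f/f and -0.11 in EKO.

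**Figure D2:**
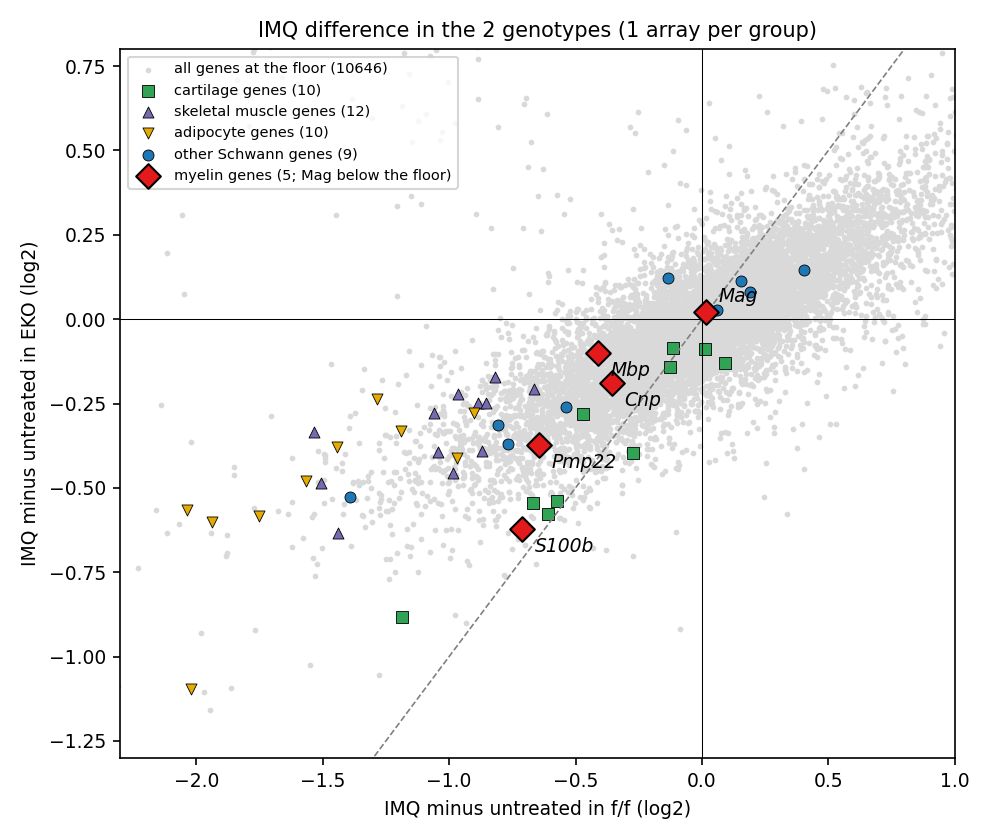
IMQ minus untreated level (log2) in f/f (horizontal) and EKO (vertical), 1 array per group; grey points are the genes at the floor that fall within the axes, coloured points are listed genes and the dashed line marks equal differences. S100b, at -0.71 and -0.62, lies near the line beside the cartilage genes Acan, Comp and Hapln1, while Mbp, Cnp and Pmp22 lie above it. Other cartilage genes lie apart from S100b: Cnmd is at -1.19 and -0.88, and Col2a1, Col9a2, Col9a3 and Col11a2 are between -0.14 and 0.09.

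Genes of other ear tissues were lower on the same arrays. All 12 skeletal muscle genes were below 0 in both genotypes, with median differences of -0.97 (f/f) and -0.31 (EKO), as were all 10 measured adipocyte genes (-1.50 and -0.45). The 10 fibroblast genes stood at medians of -0.33 and -0.24 and the 9 endothelial genes above the floor -0.34 and -0.16. Keratinocyte genes had medians of 0.17 and 0.04. The median level of the muscle genes was 10.87 in f/f untreated and 9.75 in f/f IMQ skin, and 10.65 and 10.24 in EKO. That of the adipocyte genes was 10.17 and 8.82 in f/f, and 9.71 and 9.21 in EKO. The part of these tissues in the myelin gene differences was not tested.

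Cartilage genes are set beside S100b because chondrocytes make it. Of 13, 10 reached the floor, with median differences of -0.37 (f/f) and -0.34 (EKO). Acan, the main cartilage proteoglycan gene, was at -0.61 and -0.58, Comp, a cartilage matrix protein gene, at -0.67 and -0.55, and the link protein gene Hapln1 at -0.57 and -0.54. Cnmd, a chondrocyte glycoprotein gene, was at -1.19 and -0.88, Sox9, the chondrocyte transcription factor gene, at -0.47 and -0.28, and Col11a1 at -0.27 and -0.40. The other 4, Col2a1, Col9a2, Col9a3 and Col11a2, lay between -0.14 and 0.09 in the 2 genotypes. S100b, Acan, Comp and Hapln1 thus had differences of similar size in both genotypes, and the part of cartilage in the S100b difference was not tested. From the median profile of the 10 cartilage genes S100b differed by a root mean square of 0.164, and from that of the 12 muscle genes by 0.156. Pmp22 was nearer to both, at 0.105 and 0.136, so likeness to cartilage is not particular to S100b. Hapln1, like S100b, read below the floor on both IMQ arrays (6.66 in f/f and 6.69 in EKO).

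Melanocytes also express S100b, Sox10 and Erbb3. Of 10 melanocyte genes, 5 reached the floor, but Pmel, Dct, Tyrp1 and Mlana did so on the EKO arrays alone, so their f/f readings are close to background. Mitf, the melanocyte transcription factor gene, was at -0.72 in f/f and -0.14 in EKO with IMQ, and the 5 genes had a median difference of 0.02 in EKO. EKO minus f/f, without and then with IMQ, was 1.25 and 1.65 for Tyrp1, 0.82 and 1.34 for Dct, 0.33 and 0.55 for Pmel, 0.23 and 0.36 for Mlana, and -0.42 and 0.16 for Mitf. S100b differed between the genotypes by 0.00034 without IMQ and 0.09 with IMQ.

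**Figure D3:**
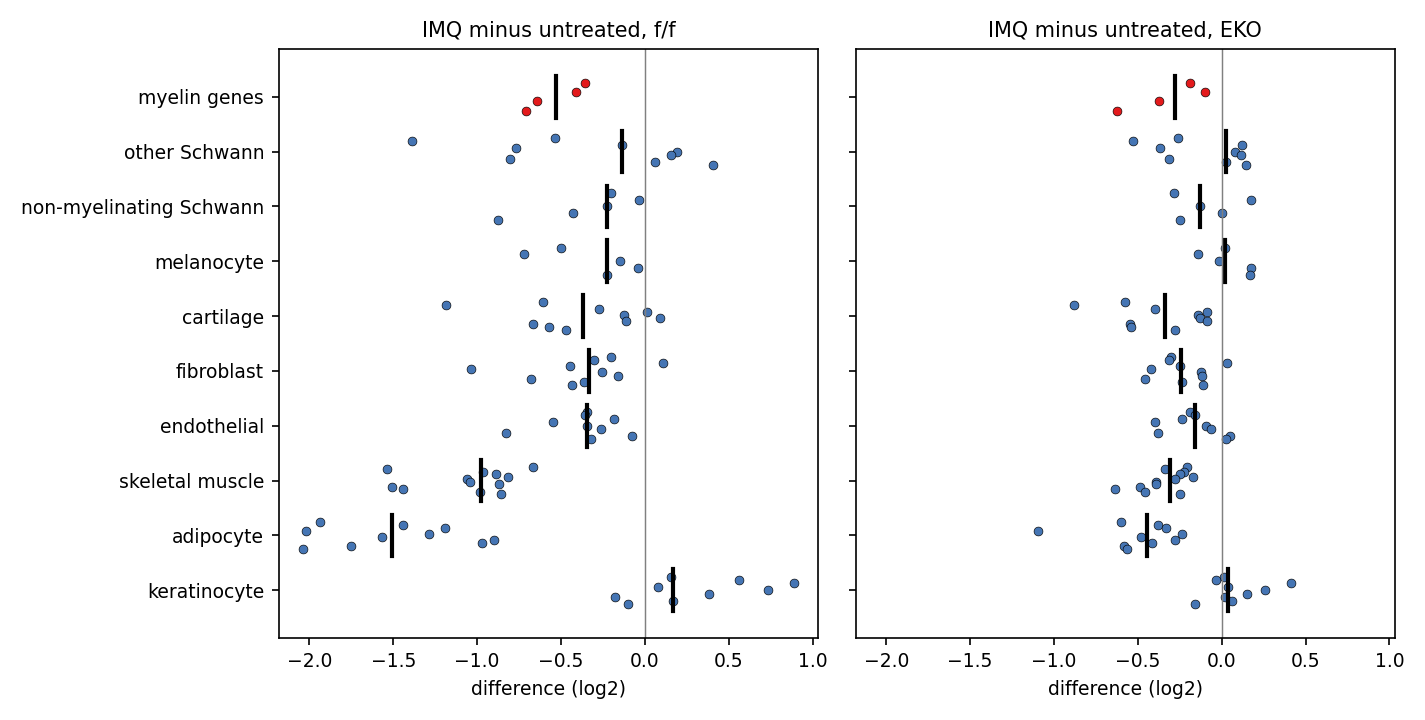
IMQ minus untreated difference (log2) in f/f (left) and EKO (right) for genes that reached the floor on at least 1 array, 1 point per gene, with a vertical bar at each list's median. The 4 myelin genes lie between -0.71 and -0.36 in f/f, above the adipocyte and most muscle genes. In f/f they are within the span of the cartilage, fibroblast, endothelial, melanocyte, other Schwann and non-myelinating Schwann genes. In EKO S100b, at -0.62, is within the cartilage span but below every fibroblast, endothelial, melanocyte, other Schwann and non-myelinating Schwann gene shown. Pmp22, at -0.37 in EKO, is below the lowest melanocyte gene (-0.14) and the lowest non-myelinating Schwann gene (-0.29).

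Between genotypes, untreated ears differed little in these genes. EKO minus f/f was -0.0075 for Mbp, -0.12 for Pmp22, -0.03 for Cnp, 0.00034 for S100b and -0.14 for Mag, which is below the floor. None of the 5 passed 1.5-fold in either direction, as 1.06% of all genes above the floor did toward lower and 0.647% toward higher. With IMQ, EKO was higher by 0.30 for Mbp, 0.16 for Pmp22, 0.14 for Cnp and 0.09 for S100b, and Mag was at -0.13. Again none passed 1.5-fold (2.03% of all genes higher and 2.61% lower). The difference of the IMQ differences, EKO minus f/f, was 0.31 for Mbp, 0.27 for Pmp22, 0.17 for Cnp, 0.09 for S100b and 0.0056 for Mag. None reached 1.5-fold, against 3.65% of 10646 genes higher and 4.63% lower, and with 1 array per group this was not tested. The comparisons share arrays, so the values are not separate results.

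**Figure D4:**
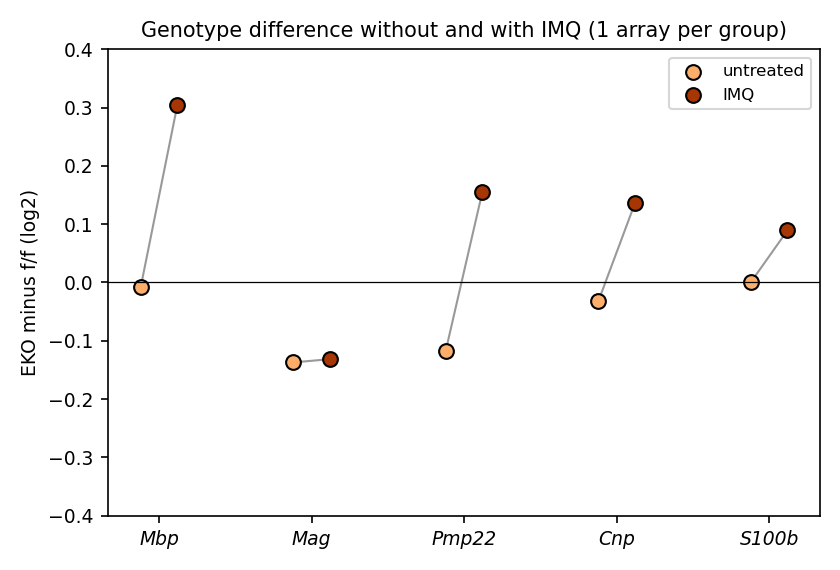
EKO minus f/f level (log2) of each measured myelin gene without IMQ (light) and with IMQ (dark), 1 array per group. Mbp stands at -0.0075 untreated and 0.30 with IMQ, Pmp22 at -0.12 and 0.16, and Mag, below the floor, at -0.14 and -0.13.

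An additive limma model gave the IMQ effect averaged over genotypes, and the genotype effect averaged over treatments, for 10646 genes that included 4 of the members. The averaged IMQ effect was -0.67 for S100b (SE 0.11, 95% interval -0.96 to -0.37, limma adjusted p = 0.162), -0.51 for Pmp22 (SE 0.12, interval -0.83 to -0.18, limma adjusted p = 0.162), -0.27 for Cnp (limma adjusted p = 0.193) and -0.26 for Mbp (limma adjusted p = 0.246). No gene of the 10646 passed an adjusted p of 0.05 in limma (0% in each direction), while 2808 had an unadjusted p under 0.05, S100b and Pmp22 among them. The averaged genotype effect was between 0.02 and 0.15 for the 4 genes, each at a limma adjusted p of 0.999, with 0 genes passing and 344 at an unadjusted p under 0.05. The fit has 1 residual degree of freedom, and that degree holds the genotype-by-IMQ difference, not the variation between ears of 1 group.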

How the data were processed

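Whole ear RNA was read on 4 arrays, 1 per group. Probe set levels were deposited on a log2 scale after RMA (background correction, quantile normalization, probe summarisation), per the submitters' processing notes; its version was not given in the sources used here, and the log2 scale was read from the values. Quantile normalization can hide a shift shared by most genes. The annotation gave a single symbol for 21789 of 35556 probe sets, which were used; the one with the highest mean stood for each gene.

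Log2 differences between arrays were computed for 5 comparisons, each gene needing the floor on at least 1 array of the comparison; lists were described over genes at the floor on any array. Averaged effects used limma 3.58.1 (intensity trend, Benjamini-Hochberg) in R 4.3.3, and other steps used Python 3.11.15. The fit was also run on simulated arrays without a genotype-by-IMQ difference, so that run does not show how it behaves where there is one. Named were all members, all list genes at the floor for lists of at most 12 such genes (the keratinocyte, muscle, adipocyte, fibroblast and endothelial lists by median alone), Sox10, Mog and Mobp as examples below the floor, without values, and the 5 genes nearest the members' median profile. Promoters came from RefSeq; 5 of the 6 members matched, and Mbp is not shown. The members and lists were chosen with earlier results of these data known. Alternatives were 3 scalings, probe set averaging, no floor, a 2-fold threshold and no trend.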

Additional observations from a re-analysis of the deposited data

Results flagged for a closer look

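The genotype difference had opposite signs without and with IMQ for Mbp, Pmp22 and Cnp, each near 0 or below without IMQ and above 0 with it. The shift was 0.31 for Mbp, 0.27 for Pmp22 and 0.17 for Cnp. The untreated difference of Mbp, -0.0075, ran from -0.02 to 0.02 over the scalings, so its sign is not settled. That of Cnp, -0.03, came as near 0 as -0.0011. The share of all genes with such a change of sign was not counted. The Schwann and axon genes at the floor were 9 other myelinating, 5 non-myelinating, 2 injury-response and 1 axonal. Of these, 3 had IMQ differences of opposite signs in f/f and EKO. The difference (EKO minus f/f) was 0.43 for Ngfr, 0.26 for Cldn19 and 0.21 for L1cam. Cldn19 lay below the floor on the f/f IMQ and EKO untreated arrays. The share of all genes with opposite signs was not counted. The EKO difference of Ngfr was 0.0034 and at most 0.03 over the scalings, and the f/f difference of L1cam, -0.03, became 0.02 with arrays centred on a common median, so that its signs then agreed. Each of these rests on 1 array per group, and the difference was not tested.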

How the results depend on the processing

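Under other scalings, probe set averaging and no floor, the IMQ difference of Mbp kept between -0.41 and -0.36 in f/f and between -0.10 and -0.08 in EKO, that of Pmp22 between -0.73 and -0.59 and between -0.41 and -0.36, that of Cnp between -0.36 and -0.30 and between -0.19 and -0.16, and that of S100b between -0.71 and -0.66 and between -0.62 and -0.59. With a 2-fold threshold 0 members in f/f and 0 in EKO passed, by construction. Under every limma setting run, no member passed an adjusted p of 0.05; the limma adjusted p for IMQ ranged from 0.140 to 0.213 for S100b and Pmp22, from 0.192 to 0.260 for Cnp and from 0.246 to 0.342 for Mbp. No paired analysis was possible because each group has 1 array and the labels carry no replicate numbers; leaving out an array would leave no residual degree of freedom. S100b with IMQ and Mag on all arrays lie below the floor, which limits their values. Drp2, Fgd4, Cldn19, Gal3st1, Arsa and Ncam1 also lie below it in f/f with IMQ, and Hapln1 with IMQ in both genotypes. The number of arrays limits all values.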
